A study of Mus musculus with 22 samples.

Results

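The mitochondrial respiratory complex I was described in the ischemic gastrocnemius muscle of 22 mice through every gene whose symbol on the array starts with Nduf, apart from Ndufa4 and Ndufa4l2. The rule found 43 of the 18524 genes measured. They were 34 subunits, 8 assembly factors with Ndufaf symbols (Ndufaf1 to Ndufaf8) and 1 transcribed pseudogene, Ndufs5-ps, whose probe may share its signal with Ndufs5 and is therefore uncertain. Each gene was read by 1 probe, namely its brightest on average across the 22 mice. Ndufs5 and Ndufb1 were not analysed here under those symbols, and neither were the complex I subunits encoded by mitochondrial DNA.

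The study asked what blocking miR-210, a microRNA induced by low oxygen, does to the muscle transcriptome after acute limb ischemia. Male C57BL/6N mice, 8 to 12 weeks old and labelled non-diabetic, had the femoral artery removed, received 1 intraperitoneal injection of 12 mg/kg of an LNA (locked nucleic acid) oligonucleotide on day 5, and gave the muscle on day 7. In the 11 ANTI-210 mice the oligonucleotide was directed against miR-210, and in the 11 SCR mice it was a scrambled control sequence. All mice were therefore ischemic and all received an oligonucleotide, and no unoperated or uninjected muscle was analysed here. The series text calls the reagents GAPmers, which make RNase H cut their target, whereas the methods call them microRNA inhibitors. The level of miR-210 itself was not analysed here. Its mature form is given below with the seed, bases 2 to 8, in capitals (RefSeq, GRCm38.p6, chr7:141221407-141221428, minus strand), because the seed is the stretch that pairs with targets.

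mmu-miR-210-3p: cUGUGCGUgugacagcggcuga

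Complex I takes electrons from NADH, passes them through a flavin and a chain of iron-sulfur clusters to ubiquinone, and pumps protons across the inner mitochondrial membrane. Its N module oxidises NADH, its Q module reduces ubiquinone and its P module forms the membrane arm, and dedicated assembly factors build it without staying in the finished enzyme. Skeletal muscle fibres are rich in mitochondria and use the proton gradient made by complex I to form ATP. MiR-210 is known to repress Iscu, a scaffold protein of iron-sulfur cluster synthesis, and also Ndufa4, which was first counted in complex I and is now placed in complex IV.

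Total RNA of each muscle (200 ng, RNA integrity number above 7) was read on 1 Illumina MouseWG-6 v2 array, so each mouse is 1 replicate. The deposited values cover 38563 probes, were quantile normalized by the authors, and run from 4.35 to 15.4 on a log scale taken as log2. Of the probes, 32093 carried 1 gene symbol. A probe with a mean under 6 was called near the floor, where the value hardly responds to the amount of RNA. The muscle label fitted markers of skeletal muscle fibres. The probe of skeletal actin Acta1 averaged 15.08 and that of muscle creatine kinase Ckm 14.96 on the log2 scale. Both lay close to the array's top. Replicate numbers 1 to 3 of both groups stood apart from numbers 4 to 11 on the second principal component of all probes. The labels name no batch, so the treatment differences of the complex I genes are also given within these sets. In bulk muscle, fewer cells of a type cannot be told apart from less RNA per cell.

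None of the 43 complex I genes passed an unadjusted p under 0.05 for ANTI-210 against SCR in limma, the test and threshold of the methods, whereas 3.24% of all genes did. The methods' t-test also called 0 members. The 34 subunits had a median difference (ANTI-210 minus SCR) of -0.05 on the log2 scale, with a range from -0.19 to 0.06. Of these differences 25 were negative and 9 positive, and over all genes 9663 of 18524 were negative. The 8 assembly factors had a median difference of 0.01, from -0.14 to 0.06, with 4 negative and 4 positive. Over all genes the median was 0.00, and 3 genes had an adjusted p under 0.05, none of them a member. These are differences that did not pass the test, and they do not show equality: the median standard error was 0.13 for the subunits, and the 95% interval reached from -0.71 to 0.55 for Ndufb4, the widest of the members. Of the marker lists of other cells, 5 of 11 endothelial markers were higher in ANTI-210 at an unadjusted p under 0.05 in limma, and none of 15 macrophage, 9 fibroblast or 10 regenerating fibre markers passed it. The endothelial markers had a median difference of 0.50 within replicate numbers 1 to 3 and 0.06 within numbers 4 to 11. Within numbers 4 to 11 none of them passed, with a lowest limma p of 0.064.

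**Figure D1:**
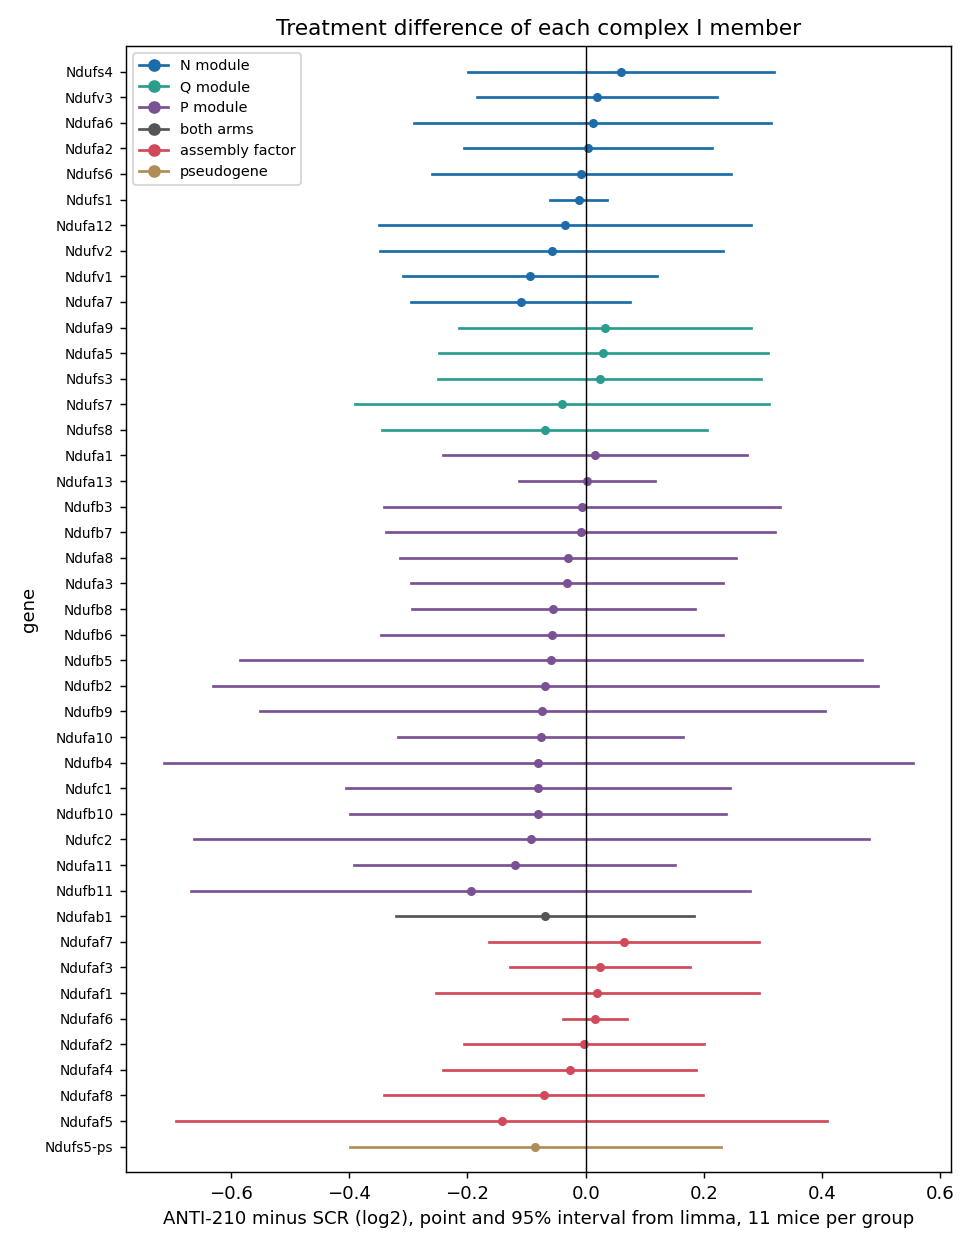
Treatment difference of each of the 43 complex I genes on the log2 scale (horizontal axis, ANTI-210 minus SCR, 11 mice per group), with points for the estimate and lines for the 95% interval from limma, coloured by module. Every interval includes 0, and the estimates lie between -0.19 and 0.06.

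In the N module, Ndufa7, an accessory subunit of the matrix arm, had the smallest p of all members. Its log2 intensity ran from 12.55 through a median of 13.11 to 13.27 in SCR mice and from 12.66 through 12.87 to 13.14 in ANTI-210 mice. The groups overlapped over nearly their whole range. The means were 13.04 ± 0.25 and 12.93 ± 0.17 (SD, n = 11 each), a difference of -0.11 (standard error 0.09, limma p = 0.232, adjusted p = 0.999). Ndufv1 encodes the core subunit that holds the flavin and the NADH binding site. Its values ran from 13.24 through 13.92 to 14.08 in SCR mice and from 13.29 through 13.81 to 14.10 in ANTI-210 mice, again overlapping, with a difference of -0.09 (standard error 0.10, limma p = 0.372). Ndufv2, the core subunit that forms the NADH-oxidising unit with Ndufv1, ran from 13.04 through 14.04 to 14.11 and from 13.23 through 13.80 to 14.19, and differed by -0.06 (standard error 0.14). Ndufs1, the large core subunit with several iron-sulfur clusters, was at 4.51 ± 0.05 in SCR and 4.49 ± 0.04 in ANTI-210 (SD, n = 11 each), so its probe sat on the floor and carried no readable level.

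The Q module held the other core subunits measured. Ndufs8 carries a pair of iron-sulfur clusters on the way to ubiquinone. Its values ran from 12.22 through 13.15 to 13.31 in SCR mice and from 12.36 through 12.93 to 13.32 in ANTI-210 mice, a difference of -0.07 (standard error 0.13, limma p = 0.607). Ndufa9, an accessory subunit at the junction of the arms, ran from 13.05 through 13.82 to 14.06 and from 13.31 through 13.83 to 14.10, a difference of 0.03 (standard error 0.12, limma p = 0.786). Both groups thus covered about the same span in these genes. Ndufs3, a core subunit without a cluster, ran from 12.61 through 13.45 to 13.59 and from 12.64 through 13.40 to 13.63, a difference of 0.02 (standard error 0.13). Ndufs7, the carrier of the last cluster before ubiquinone, ran from 12.95 through 14.08 to 14.18 and from 12.94 through 13.89 to 14.17, a difference of -0.04 (standard error 0.17). In each of these genes the groups overlapped.

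In the P module 16 of 18 subunits had a negative difference (9663 of 18524 over all genes), with a median of -0.06 and none past the test. The subunits rose and fell together across mice, so these signs are not separate observations. Ndufa11, an accessory subunit of the membrane arm, ran from 11.95 through 12.87 to 12.95 in SCR mice and from 12.08 through 12.63 to 12.88 in ANTI-210 mice, a difference of -0.12 (standard error 0.13, limma p = 0.369). Ndufb11, encoded on the X chromosome, had the largest difference of any member, at -0.19 (standard error 0.23, limma p = 0.403). Its values spread from 7.01 through 8.20 to 8.49 in SCR and from 6.93 through 7.76 to 8.57 in ANTI-210, so both groups covered the same span. The probes of Ndufa13 (also known as Grim19) and Ndufb8 had the highest means among the subunits, 14.76 and 14.41, and differences of 0.00 and -0.05. That of Ndufc2 had the lowest mean above the floor, 7.44, with a difference of -0.09 (standard error 0.28). Ndufab1, the mitochondrial acyl carrier protein found in both arms, differed by -0.07, and the pseudogene Ndufs5-ps by -0.09.

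Among the assembly factors Ndufaf6 and Ndufaf7 had the smallest p. Ndufaf7, a methyltransferase of the mitochondrial matrix, ran from 7.62 through 8.28 to 8.62 in SCR mice and from 7.83 through 8.26 to 8.45 in ANTI-210 mice, a difference of 0.06 (standard error 0.11, limma p = 0.563). Ndufaf6 was near the floor with a mean of 4.51, and its difference was 0.02 (standard error 0.03, limma p = 0.537). Ndufaf5, which hydroxylates Ndufs7, had the largest difference of the assembly factors, -0.14 (standard error 0.27). It ran from 9.26 through 10.84 to 11.35 in SCR and from 9.47 through 10.49 to 11.00 in ANTI-210, with overlap throughout. Its partner Ndufaf8 differed by -0.07 (standard error 0.13). Ndufaf3 and Ndufaf4, which bind each other early in assembly, differed by 0.02 (standard error 0.07) and -0.03 (standard error 0.10). Ndufaf1, of the complex that builds the membrane arm, differed by 0.02 (standard error 0.13), and the late factor Ndufaf2 by 0.00 (standard error 0.10).

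A second reading came from other probes of the same genes. Of the members 17 had 23 further probes, and the 18 above the floor had differences from -0.18 to 0.06. No further probe had an unadjusted p under 0.05 in limma, and the lowest was 0.256. The remaining 26 members had 1 probe each and no such check.

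The complex I genes varied far more between mice within a group than between the groups. Per mouse, the mean over the 34 subunits of the log2 value minus each gene's mean over all mice ran from -0.69 through 0.17 to 0.30 in SCR and from -0.64 through 0.02 to 0.34 in ANTI-210. The same mean over the 8 assembly factors ran from -0.44 through 0.10 to 0.22 in SCR and from -0.39 through 0.08 to 0.24 in ANTI-210. The low ends came from the same 3 mice, SCR replicates 6 and 7 and ANTI-210 replicate 11, which were the 3 lowest for 25 of the 43 members. The lowest mouse was SCR replicate 6 for 28 members, ANTI-210 replicate 11 for 9 and SCR replicate 7 for 2. Ndufb4 spread most, over 2.49 on the log2 scale, with a maximum of 10.05 in ANTI-210 replicate 6 and a minimum of 7.56 in ANTI-210 replicate 11. Ndufa13, whose probe was closest to the array's top, spread over 0.48.

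**Figure D2:**
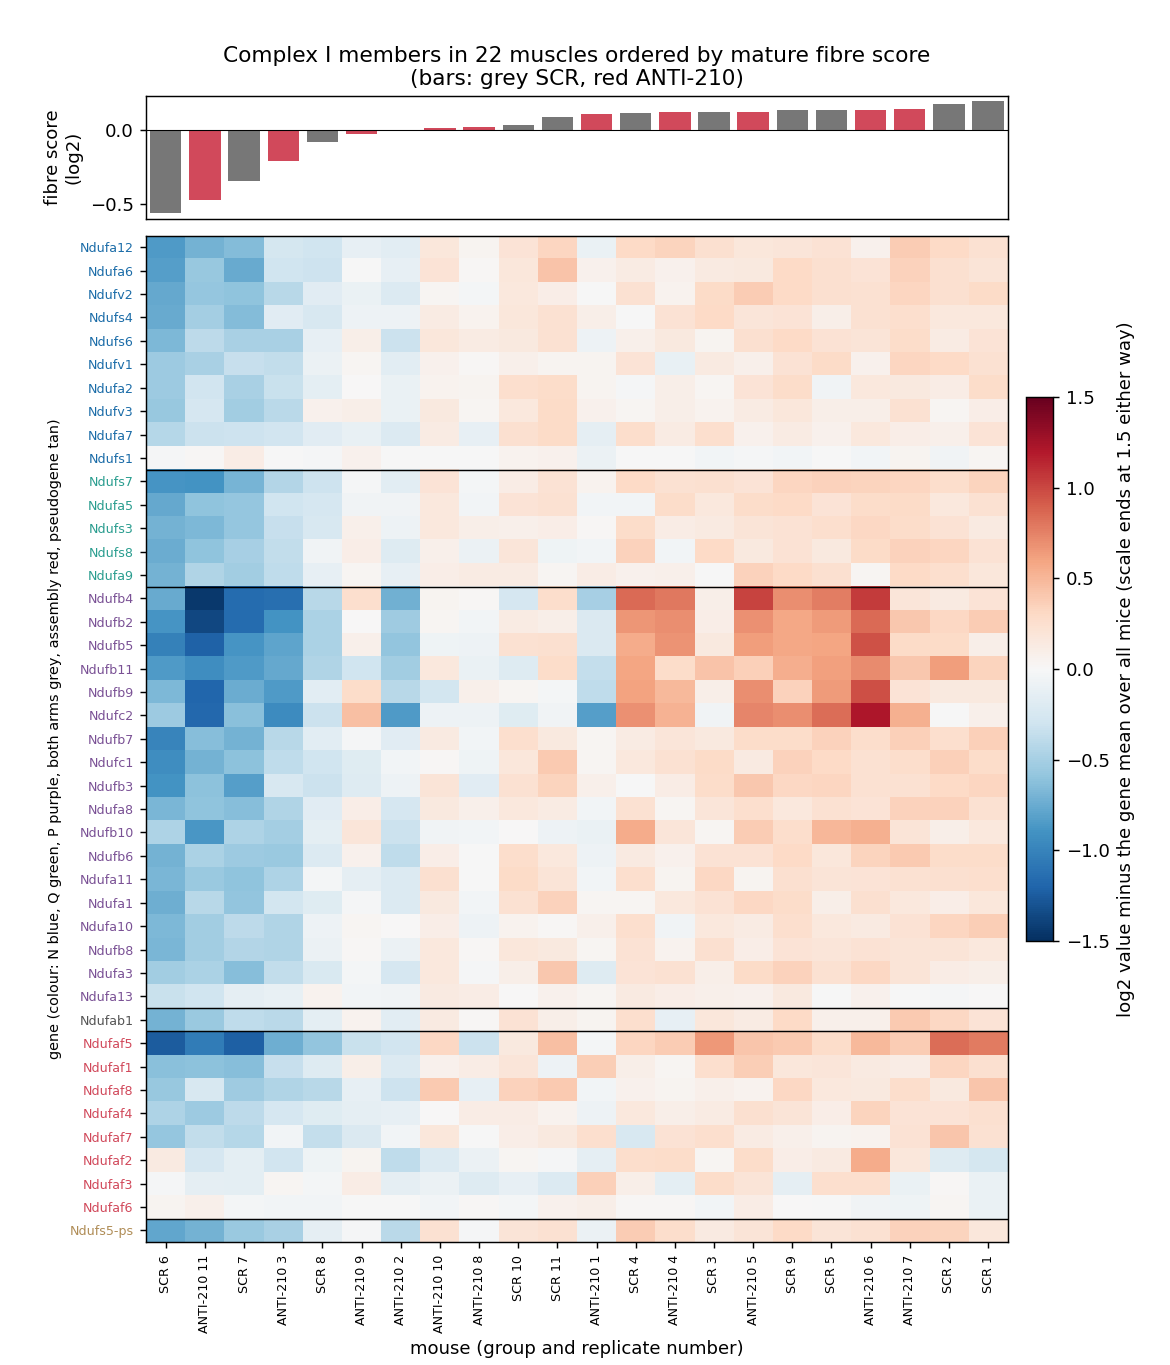
Log2 value minus the gene's mean over all mice (colour) for the 43 complex I genes (rows, grouped by module) in the 22 mice (columns, ordered by mature fibre score, shown as bars, grey for SCR and red for ANTI-210). Mice with a low fibre score, SCR 6 at -0.56, ANTI-210 11 at -0.47 and SCR 7 at -0.35, are low for nearly every row, and the rows of Ndufs1 and Ndufaf6, which lie near the floor, are flat.

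This variation was set against a mature fibre score, the mean per mouse over contractile and fast-fibre metabolic genes of the log2 value minus the gene's mean over all mice. Of the 25 genes listed 23 were measured, and none is a complex I gene. The score ran from -0.56 through 0.12 to 0.20 in SCR mice and from -0.47 through 0.02 to 0.14 in ANTI-210 mice. A slope gives the change of a gene's log2 value per log2 unit of the score, fitted by limma with group as a covariate. Score and members were read on the same arrays, on which quantile normalization makes values relative to one another.

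With a higher fibre score 39 of the 43 complex I genes rose at an adjusted p under 0.05 in limma and none fell. Over all genes 19.9% rose, and among the genes above the floor 35.6% did. The 39 were 33 of the 34 subunits, 5 of the 8 assembly factors and the pseudogene. The median slope was 1.39 for the subunits and 1.04 for the assembly factors, against 0.02 for all genes. Of the score's own 23 genes 16 rose, with a median slope of 0.63. Their median mean was 14.75, near the array's top, so a slope above 1 does not show that complex I changed more than the fibres. Leaving out SCR replicate 6 and ANTI-210 replicate 11, the mice farthest from the median score, also gave 39. Within replicate numbers 4 to 11 the count was 39, and within numbers 1 to 3, with only 6 mice, it was 3 (Ndufb2, Ndufb4 and Ndufaf5).

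Among the subunits the rise was shared by all modules. In the N module 9 of 10 rose, with a median slope of 1.14, all but Ndufs1 on its floor probe (-0.06, standard error 0.06, adjusted p = 0.453). Ndufv1 had a slope of 1.07 (standard error 0.10, adjusted p = 1.18e-08), Ndufv2 of 1.49 (standard error 0.11) and Ndufa7 of 0.85 (standard error 0.12). All 5 Q subunits rose, with a median of 1.41, led by Ndufs7 at 1.84 (standard error 0.10, adjusted p = 1.72e-11), and the core subunits Ndufs3 and Ndufs8 had slopes of 1.41 and 1.37. All 18 P subunits rose, with a median of 1.55, and the 10 with Ndufb symbols, which sit in the distal and outer membrane arm, had a median of 1.87.

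The subunits with the largest slopes were Ndufb4 at 2.66 (standard error 0.47, adjusted p = 5.99e-05) and Ndufb2 at 2.65 (standard error 0.32, adjusted p = 5.02e-07). The smallest slope above the floor was that of Ndufa13 at 0.51 (standard error 0.08, adjusted p = 8.22e-06). Slopes went with probe brightness: the 21 subunits with a mean of 13 or above had a median slope of 1.25, and the 12 between the floor and 13 had one of 1.86. The part of the scale near the array's top in this difference was not tested. Further probes of the same genes above the floor had slopes from 0.63 to 3.20.

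The assembly factors were less even than the subunits. Ndufaf5 had the largest slope of all members, 2.76 (standard error 0.24, adjusted p = 5.33e-09), larger than that of 98.5% of all genes. Its partner Ndufaf8 had a slope of 1.12 (standard error 0.20), Ndufaf1 of 1.36 (standard error 0.13), Ndufaf4 of 1.06 (standard error 0.10) and Ndufaf7 of 1.02 (standard error 0.15), all past the test. Ndufaf2 with 0.31 (standard error 0.23, adjusted p = 0.326) and Ndufaf3 with 0.21 (standard error 0.17, adjusted p = 0.377) did not pass it. Their probes lay above the floor at means of 9.53 and 6.86, that of Ndufaf3 only just, with a spread of 0.57 over all mice. Each of these genes had 1 probe. Ndufaf6 was at -0.05 on its floor probe. The probes of the 2 classes also sat at different heights on the log2 scale, with median means of 13.33 for the subunits and 9.50 for the assembly factors. Whether the slopes of the 2 classes differ was not tested.

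**Figure D3:**
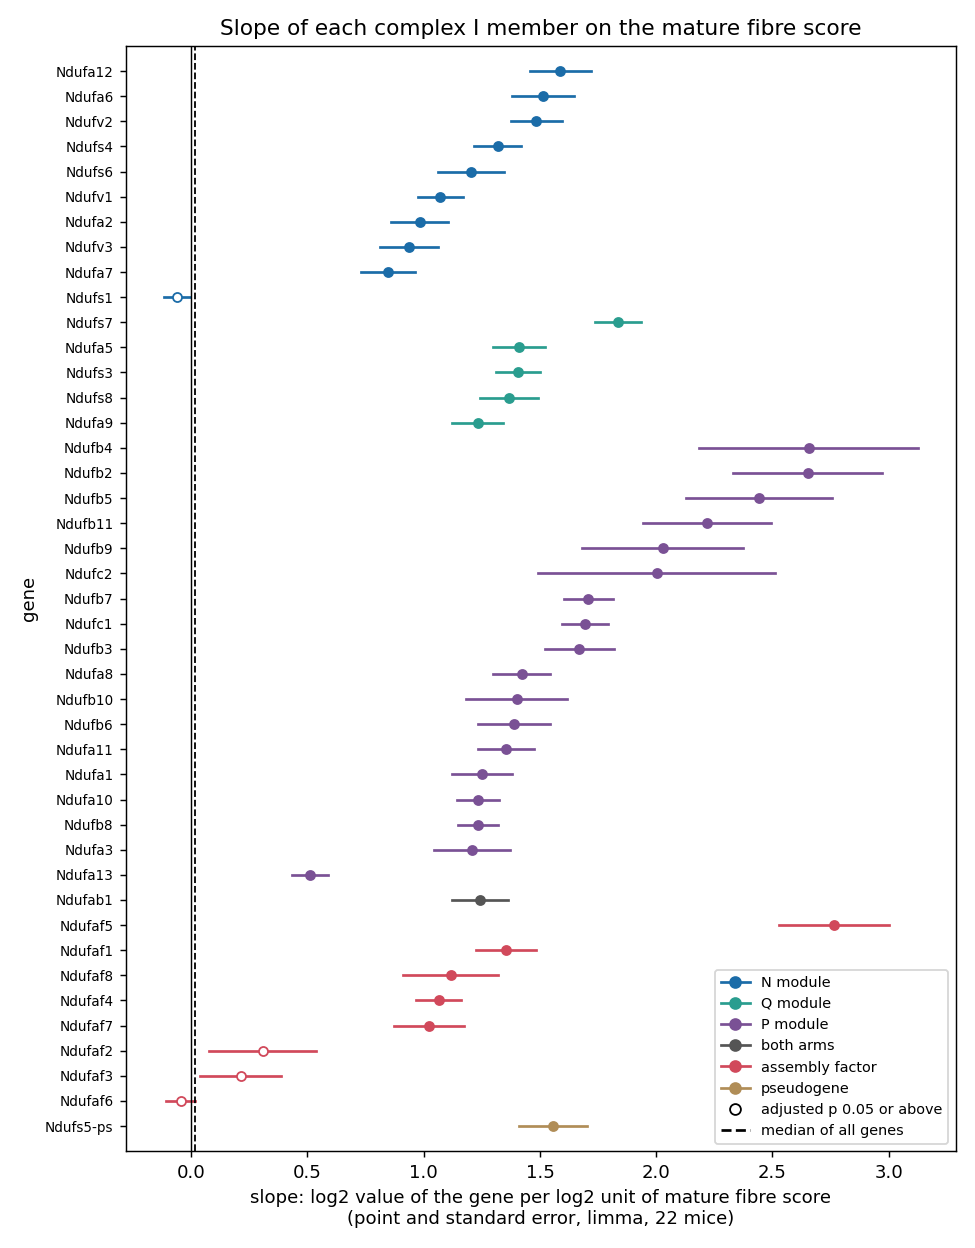
Slope of each complex I gene on the mature fibre score (horizontal axis, log2 value of the gene per log2 unit of score, 22 mice), with points for the limma estimate, lines for the standard error and colours for the module. Filled points had an adjusted p under 0.05: 39 of 43 genes, with Ndufs1, Ndufaf2, Ndufaf3 and Ndufaf6 as the open points, and the dashed line is the median of all genes at 0.02.

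Markers of some other cells fell along the score, as did 23.8% of all genes. Of 15 macrophage markers measured of 17 listed, 13 fell and 1 rose (Cd163), and the macrophage score ran from -1.30 to 1.26 in SCR and from -0.75 to 1.04 in ANTI-210 mice. Of 10 regenerating fibre markers 6 fell, and of 9 fibroblast markers 7 fell. The other lists did not share this: of 11 endothelial markers 2 rose and 1 fell, of 6 adipocyte and of 4 Schwann cell markers 1 rose each and none fell, and none of 3 red blood cell markers passed the test. Of 8 slow fibre markers 5 rose and 1 fell. SCR replicate 6, the lowest mouse for the subunits at -0.69, had the highest macrophage score at 1.26 and a regenerating fibre score of 1.06. With minus the macrophage score in place of the fibre score, 39 complex I genes again rose, and the same 4 did not. The part of macrophages, of regeneration and of fibre loss in the slopes was not tested.

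**Figure D4:**
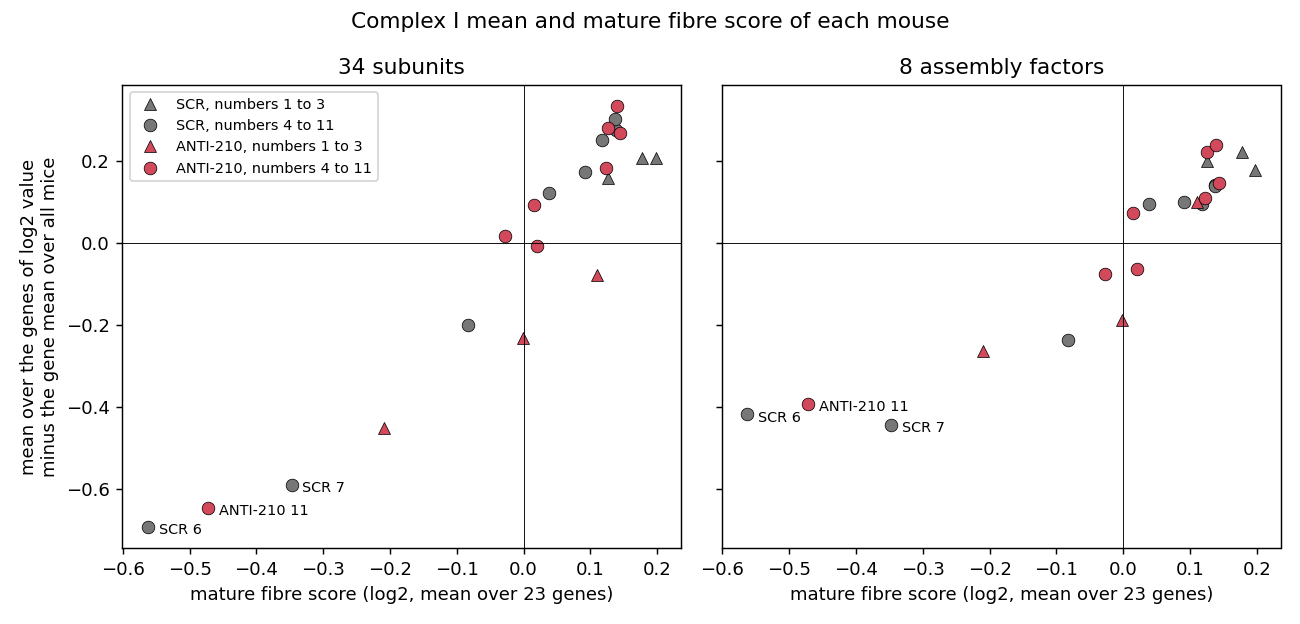
Mean over the 34 subunits (left) and over the 8 assembly factors (right) of the log2 value minus the gene mean, for each mouse (vertical axis), against its mature fibre score (horizontal axis, log2), with grey for SCR, red for ANTI-210, triangles for replicate numbers 1 to 3 and circles for 4 to 11. Most mice of both groups lie along one band, from SCR 6 at -0.69 for the subunits to ANTI-210 6 at 0.34. For the subunits ANTI-210 1 and 2 lie below mice of about the same score. ANTI-210 1 is at -0.08 (score 0.11) and SCR 4 at 0.25 (score 0.12). ANTI-210 2 is at -0.23 (score -0.001) and ANTI-210 10 at 0.09 (score 0.015).

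Since nearly all members moved together, their promoters were searched for 4 short motifs of factors known for mitochondrial genes, on both strands of a window from 250 bases before to 50 after the RefSeq gene start. A window was matched by symbol for 31 of the 34 subunits and 7 of the 8 assembly factors. The motif of NRF1 (nuclear respiratory factor 1), GCGCANGCG, was found in 7 subunits and 2 assembly factors, and in 7.03% of all 27025 genes. That of YY1, AAGATGGC, was found in 7 subunits and 1 assembly factor (3.19% of all genes), that of GABP, CCGGAAG, in 4 and 2 (9.93%), and that of the estrogen-related receptors, AAGGTCA, in 2 subunits and no assembly factor (5.38%). The reverse strand was read as the reverse complement of each motif, and no motif contains another. A match describes letters in the window and is not a binding site.

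The 2 subunits with the receptor motif were Ndufb2 and Ndufb4, and at 6.45% of the subunits searched their share was near that of all genes. At least 1 of the 4 motifs was found in 18 subunits, whose slopes had a median of 1.40 and ran from 1.20 to 2.66. The 13 subunits without a match had a median of 1.25 and slopes from 0.51 to 2.44, so the ranges overlapped. Of the assembly factors, Ndufaf1, Ndufaf4, Ndufaf5 and Ndufaf8 had a match and slopes from 1.06 to 2.76, and Ndufaf2, Ndufaf3 and Ndufaf7 had none and slopes from 0.21 to 1.02, a description of only 7 genes. The 250 bases before the start are printed for Ndufb4 and Ndufb2, which had the largest subunit slopes, for Ndufa8, with a pair of NRF1 matches next to the start, and for Ndufaf4 and Ndufaf3, partner proteins of which only the first had a called slope. Motif matches are in capitals (build GRCm38.p6).

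Ndufb4, chr16:37654369-37654618, minus strand, NRF1 at -191, -79 and -22 and the receptor motif at -55: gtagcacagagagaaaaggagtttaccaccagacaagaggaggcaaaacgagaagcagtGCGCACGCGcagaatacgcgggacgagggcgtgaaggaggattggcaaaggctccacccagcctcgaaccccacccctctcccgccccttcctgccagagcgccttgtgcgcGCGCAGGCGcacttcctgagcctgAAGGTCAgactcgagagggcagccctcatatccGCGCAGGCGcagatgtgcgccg

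Ndufb2, chr6:39592315-39592564, plus strand, the receptor motif at -181: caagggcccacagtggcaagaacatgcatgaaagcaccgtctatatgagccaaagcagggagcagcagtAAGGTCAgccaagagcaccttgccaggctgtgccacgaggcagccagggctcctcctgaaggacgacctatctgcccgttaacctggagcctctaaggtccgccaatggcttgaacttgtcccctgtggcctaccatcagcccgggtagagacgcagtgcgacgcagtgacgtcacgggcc

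Ndufa8, chr2:36049339-36049588, minus strand, NRF1 at -29 and -9: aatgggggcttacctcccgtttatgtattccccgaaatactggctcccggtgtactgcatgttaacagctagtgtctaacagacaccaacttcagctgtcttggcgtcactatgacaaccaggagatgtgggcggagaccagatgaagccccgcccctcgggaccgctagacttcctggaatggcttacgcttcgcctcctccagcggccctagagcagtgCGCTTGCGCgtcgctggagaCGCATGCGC

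Ndufaf4, chr4:24897833-24898082, plus strand, overlapping NRF1 matches on both strands from -113: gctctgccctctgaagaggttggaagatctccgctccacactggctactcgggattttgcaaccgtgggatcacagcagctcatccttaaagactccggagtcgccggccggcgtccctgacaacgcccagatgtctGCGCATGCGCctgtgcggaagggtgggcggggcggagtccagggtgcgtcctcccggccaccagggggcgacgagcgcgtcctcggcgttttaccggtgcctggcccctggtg

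Ndufaf3, chr9:108567437-108567686, minus strand, no match: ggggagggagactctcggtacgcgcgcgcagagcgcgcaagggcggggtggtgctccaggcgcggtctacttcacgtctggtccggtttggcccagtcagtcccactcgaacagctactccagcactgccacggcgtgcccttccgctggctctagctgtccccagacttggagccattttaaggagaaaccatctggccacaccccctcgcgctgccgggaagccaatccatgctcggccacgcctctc

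Of these, Ndufb4 held 4 matches and Ndufaf3 none. The slope of Ndufaf4 was 1.06 and that of Ndufaf3 was 0.21, which did not pass the test and came from a dim probe just above the floor.

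Within replicate numbers 1 to 3 the complex I genes were lower in ANTI-210 mice. Every ANTI-210 mouse lay below every SCR mouse for 33 of 43 members (29 subunits, 3 assembly factors and the pseudogene), against 19% of all genes and 30.4% of genes above the floor. By limma 33 members were lower at an unadjusted p under 0.05 (16.7% of all genes) and 20 at an adjusted one (9.17%). The median difference was -0.40 for the subunits and -0.29 for the assembly factors. With 3 mice against 3, an exact permutation test of 1 gene cannot go below 0.1.

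Ndufaf5 showed the largest of these differences. It was at 11.29, 11.35 and 11.16 in SCR replicates 1 to 3 and at 10.49, 10.23 and 9.78 in the ANTI-210 ones, a difference of -1.10 (limma adjusted p = 0.0197). Ndufb11 was at 8.20, 8.49 and 8.29 against 7.51, 7.34 and 7.10, a difference of -1.01 (limma adjusted p = 0.0170). Ndufb4 was at 9.21, 9.14 and 9.09 against 8.51, 8.28 and 7.87, a difference of -0.93 (limma adjusted p = 0.0209). In all 3 genes the SCR mice lay close together and above the ANTI-210 mice, of which replicate 3 was the lowest.

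Within replicate numbers 4 to 11 (8 mice against 8) the differences of the means were mostly positive. Of the 43 members 41 had a positive difference (8961 of 18524 over all genes), with medians of 0.12 for the subunits and 0.09 for the assembly factors. The typical mouse was not higher: the subunit mean per mouse had a median of 0.15 in these SCR mice and 0.14 in these ANTI-210 mice. This set holds the low mice SCR replicates 6 and 7 (-0.69 and -0.59) and ANTI-210 replicate 11 (-0.64). The members moved together across mice, so the 41 signs are not separate observations. No member passed an unadjusted p under 0.05 in limma, where 2.38% of all genes did. Ndufaf5 differed by 0.22 (limma p = 0.488), Ndufb11 by 0.11 (limma p = 0.690) and Ndufb4 by 0.24 (limma p = 0.531). A test of the difference between the sets, added after the data were seen, was past an unadjusted p under 0.05 for 5 members (6.27% of all genes), each lower in numbers 1 to 3, and past an adjusted one for 0 (0% of all genes). The 5, named after their values were seen, were Ndufb6 (-0.74, p = 0.0160), Ndufaf5 (-1.32, p = 0.0231), Ndufb11 (-1.12, p = 0.0281), Ndufa8 (-0.65, p = 0.0357) and Ndufs6 (-0.56, p = 0.0372), all by limma with an adjusted p of 0.409.

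**Figure D5:**
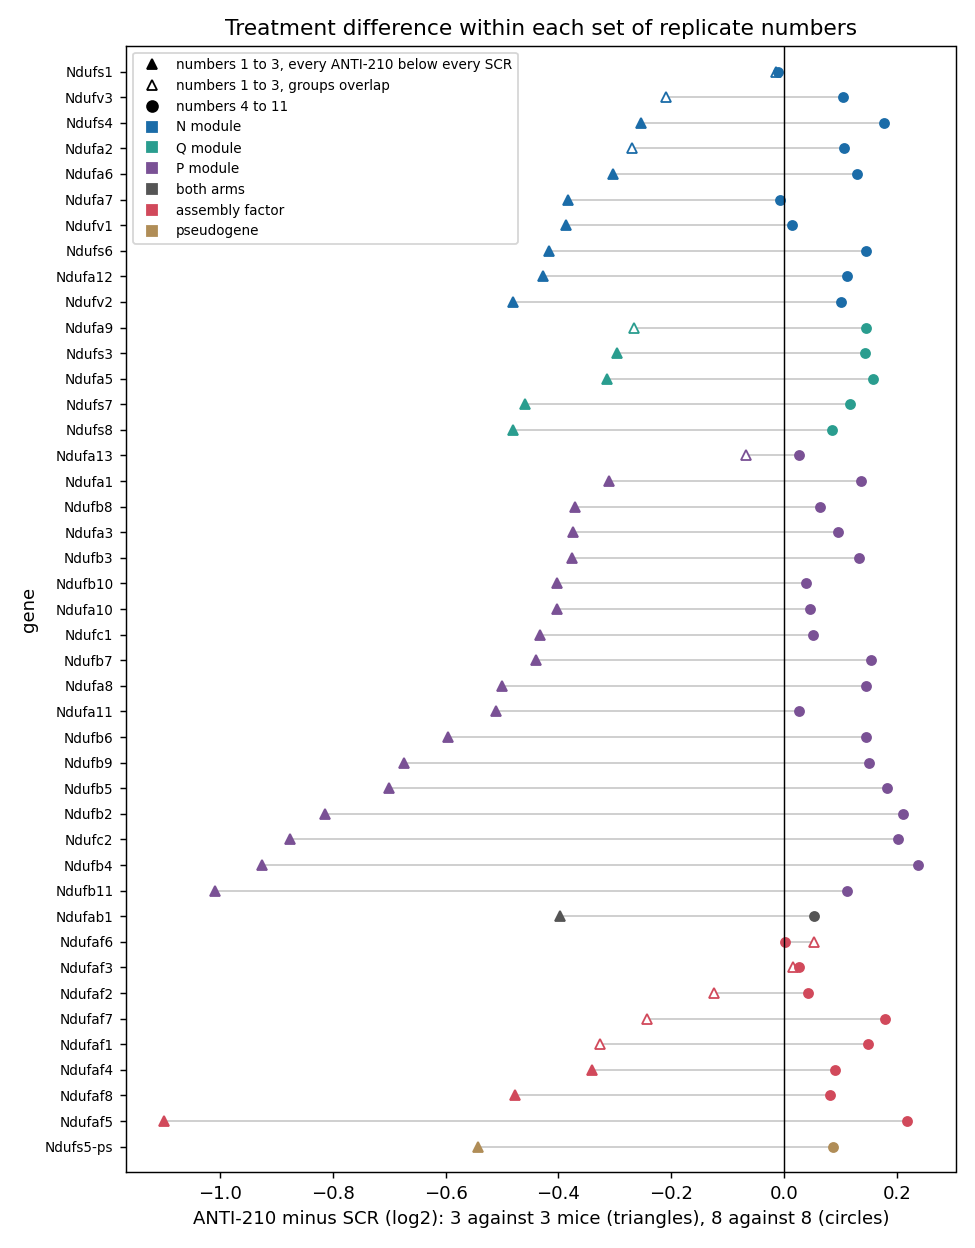
Treatment difference (ANTI-210 minus SCR, log2) of each complex I gene within replicate numbers 1 to 3 (triangles, 3 against 3 mice, filled where every ANTI-210 mouse lay below every SCR mouse) and within numbers 4 to 11 (circles, 8 against 8). Triangles reach from -1.10 to 0.05 and circles from -0.01 to 0.24, and 33 of the 43 triangles are filled.

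Several fibre and cell type scores moved with this result. The fibre score was 0.13 to 0.20 in SCR replicates 1 to 3 and -0.21 to 0.11 in the ANTI-210 ones, and 19 of 23 fibre markers had a negative difference. The macrophage score was -0.44 to -0.16 against 0.31 to 1.04, and all macrophage markers but Cd163 had a positive difference, with a median of 1.18. The fibroblast score was -0.60 to -0.21 against 0.39 to 0.85, and all 9 fibroblast markers had a positive difference. The regenerating fibre score was -0.59 to -0.22 against 0.06 to 0.63, with 3 of 10 markers negative. The slow fibre score, over 8 genes of oxidative fibres, was 0.15 to 0.31 against -0.83 to -0.28. The endothelial score was -0.32 to -0.08 against 0.04 to 0.33, with 10 of 11 markers positive, and the Schwann cell score, over 4 genes, was -0.81 to -0.20 against 0.04 to 0.39. The groups overlapped in the adipocyte score, 0.17 to 0.43 against 0.35 to 0.83, and in the red blood cell score, -0.93 to -0.07 against -1.20 to 1.73. The part of these cells and fibres in the lower complex I values of these ANTI-210 mice was not tested.

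With the fibre score as a covariate over all 22 mice, 3 members passed an unadjusted p under 0.05 in limma, each lower in ANTI-210 mice, where 6.38% of all genes passed. They were Ndufa11 (-0.11, p = 0.0375), Ndufv1 (-0.09, p = 0.0408) and Ndufa7 (-0.11, p = 0.0421), with adjusted p of 0.769, 0.773 and 0.773. With the first principal component of all probes as the covariate, 3 other members passed, each higher, where 6.34% of all genes passed. They were Ndufs4 (0.13, p = 0.00969), Ndufa5 (0.10, p = 0.0104) and Ndufa1 (0.08, p = 0.0483), with adjusted p of 0.583, 0.584 and 0.782. The 6 genes kept their sign in both fits, and in each fit the members' count was close to the share of all genes.

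Complex I also has assembly factors with other symbols. Of 11 measured of 13 listed, none passed an unadjusted p under 0.05 for the treatment in limma, where 3.24% of all genes did. Their median difference was -0.05. It was -0.24 within replicate numbers 1 to 3 and 0.115 within numbers 4 to 11. In numbers 1 to 3, 6 of the 11 were lower at an unadjusted p under 0.05 in limma (16.7% of all genes). With the fibre score 8 of the 11 rose, against 19.9% of all genes. The smallest p were those of Acad9, a partner of Ndufaf1 in membrane arm assembly (-0.12, p = 0.329), Foxred1 (-0.08, p = 0.431), Nubpl, an iron-sulfur cluster carrier whose probe was near the floor at 4.48 (-0.02, p = 0.477), and Tmem70, also near it at 5.01 (0.08, p = 0.587). Acad9 had a slope of 1.16 (standard error 0.13) and Ecsit, of the same complex and named after its value was seen, one of 2.40 (standard error 0.21).

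Of 12 regulators of mitochondrial biogenesis measured of 13 listed, 1 was lower in ANTI-210 mice at an unadjusted p under 0.05, where 3.24% of all genes passed in either direction. This was Gabpa, a subunit of the GABP factor, at 6.54 ± 0.16 in SCR and 6.39 ± 0.11 in ANTI-210 (SD, n = 11 each), a difference of -0.15 (standard error 0.06, limma p = 0.0177, adjusted p = 0.999). Its difference was -0.35 within replicate numbers 1 to 3 and -0.07 within numbers 4 to 11. The next were the coactivator Ppargc1b (-0.15, p = 0.224), the methyltransferase Tfb1m (-0.10, p = 0.269) and the nuclear receptor Esrra (-0.19, p = 0.392). Along the fibre score 6 of the 12 regulators rose (19.9% of all genes) and 2 fell (23.8% of all genes), the latter being Nrf1 (-0.67, standard error 0.16) and Pprc1 (-1.11, standard error 0.18), both named after their values were seen. The estrogen-related receptor Esrra rose with a slope of 2.12 (standard error 0.25).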

How the data were processed

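Total RNA of 22 ischemic muscles was read on Illumina MouseWG-6 v2 BeadChips, 1 array per mouse. With GenomeStudio and the beadarray package the authors summarised the beads and quantile normalized the arrays, and the log2 values were used as deposited. The methods also name a filter on expression and probe quality. The 38563 deposited probes had a median mean of 5.01, so dim probes were still among them. Genes near the floor therefore stayed in the fits and in the adjustment of p-values. The log base was not stated and was taken as 2. Tool versions and filter limits were not stated in the methods read here. The number of arrays limits the precision.

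Of 38563 probes, 32093 had 1 gene symbol, 16 had several and 6454 had none in the platform annotation. Probes with several or no symbol were left out, and the probe with the highest mean stood for each of 18524 genes. ANTI-210 was compared with SCR by lmFit and eBayes (limma 3.58.1, R 4.3.3), two-sided, with p-values adjusted by Benjamini-Hochberg over all genes, and slopes were fitted the same way. The fits were tested on simulated data. Nothing says more of the replicates than that each is a separate mouse.

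Named were members with an unadjusted p under 0.05, the 2 with the smallest p in each module and among the assembly factors, the core subunits, every Ndufaf gene, and the 2 subunits at either end of mean and of slope. Outside the members, up to 4 genes of a list with the smallest p were named. The members, lists, tests and alternatives were chosen with earlier results of these data known. Alternatives were other normalizations, moderation, array weights, a filter on dim probes, the mean of probes, a replicate block, sets of replicate numbers, covariates, the methods' t-test and leaving out each mouse. Mice with the same replicate number did not deviate together: 4 of 11 correlations of their deviations were above 0.1, from -0.69 to 0.68. Promoter windows and the miRNA came from RefSeq (GRCm38.p6), and figures were drawn with matplotlib 3.10.9 under Python 3.11.15.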

Additional observations from a re-analysis of the deposited data

How the results depend on the processing

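The count of 0 complex I genes at an unadjusted p under 0.05 became 3 with array weights (Ndufa7, Ndufa11 and Ndufb11, all lower in ANTI-210), 3 with the mature fibre score as a covariate, 3 with adjustment for the first principal component and 33 within replicate numbers 1 to 3. The causes were not tested. It was 0 under each other alternative, and 0 without any 1 of the 22 mice. The count of 39 slopes became 3 within replicate numbers 1 to 3, where only 6 mice entered, and was 39 without any 1 mouse.

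The difference between the median of the subunits and that of the assembly factors was -0.05, and ran from -0.11 to 0.01 when each mouse was left out. It was -0.12 within numbers 1 to 3, 0.03 within numbers 4 to 11 and -0.10 with array weights.

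With the replicate block the treatment count was 0, the slope count 40, with Ndufaf2 added, and the difference between the medians -0.05. The replicate numbers are shared between the groups but do not pair the mice.

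Probes near the floor (Ndufs1, Ndufaf6) could not show a difference, and probes near the array's top can understate one.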
